A study of Mus musculus with 6 samples.

Results

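The guanylate-binding proteins (GBPs) and the immunity-related GTPases (IRGs) were examined in the liver of mice homozygous for the G609G allele of Lmna, through 10 listed genes: Gbp2, Gbp3, Gbp6, Gbp7, Igtp, Irgm1, Irgm2, Iigp1, Tgtp1 and Ifi47. A listed gene was counted as a member where a probe set of the array was annotated to that symbol and to no other. This held for 4 of the 10, the GBPs Gbp3 and Gbp7 and the IRGs Irgm1 and Iigp1, of 19938 genes with such a probe set on the array. The other 6 listed genes were read by 6 probe sets that each carry the symbols of 2 or more genes. Those values are given below under all the symbols of the probe set, since the array does not say which gene the signal came from.

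The samples were livers of 3 LmnaG609G/G609G knock-in mice (replicates 1, 3 and 5) and 3 Lmna+/+ wild-type mice (replicates 2, 4 and 6). All 6 mice were female, of the C57BL/6 background, 3 months old and fasted for 6 h, and each gave 1 one-colour array. The allele changes the splicing of the transcript of lamin A, a protein of the nuclear lamina, and homozygous mice are a model of the premature ageing syndrome Hutchinson-Gilford progeria. The labels name no promoter or cell type that restricts the allele, no treatment apart from the fast, and no infection or interferon given to any mouse.

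GBPs and IRGs are GTPases that cells make when interferon-gamma, a cytokine of T cells and natural killer cells, binds its receptor. The receptor signals through the kinases JAK1 and JAK2, and target genes respond through promoter elements called GAS (gamma-activated sites). IRF1, itself induced this way, binds interferon-stimulated response elements (ISREs), and type I interferons act on ISREs through a complex that holds STAT2 and IRF9. GBPs are large GTPases related to the dynamins that coat pathogen vacuoles and free bacteria. IRGs are smaller. Effector IRGs, such as the products of Iigp1, Tgtp1 and Ifi47, load onto pathogen vacuoles, and regulatory IRGs (the products of Irgm1, Irgm2 and Igtp) keep the effectors inactive on the cell's own membranes.

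The promoters of the listed genes are shown first, because the promoter elements just described can be read in them. RefSeq windows of 300 bases on GRCm38.p6, from 250 before to 50 after the annotated start, were found for 8 of the 10 genes, in 9 windows, as Gbp3 has 2. Gbp6 and Iigp1 had none. The ISRE core was searched as GAAA, any 2 bases and GAAA again, and the GAS as TTCNNNGAA (N is any base), both on either strand. Matches of the same motif may overlap. The windows of the members Gbp3 (the first), Gbp7 and Irgm1, and the 3 IRG windows with a GAS beside an ISRE core, are printed 5′ to 3′ on the gene's strand. Capitals mark the bases of a GAS or ISRE core match.
Gbp3, chr3:142559794-142560093, plus strand: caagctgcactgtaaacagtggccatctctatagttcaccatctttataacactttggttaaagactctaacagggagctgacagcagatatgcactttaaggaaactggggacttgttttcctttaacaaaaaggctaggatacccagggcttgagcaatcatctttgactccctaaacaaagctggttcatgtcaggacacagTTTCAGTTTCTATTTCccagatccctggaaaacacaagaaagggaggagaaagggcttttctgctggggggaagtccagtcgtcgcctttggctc
Gbp7, chr3:142530086-142530385, plus strand: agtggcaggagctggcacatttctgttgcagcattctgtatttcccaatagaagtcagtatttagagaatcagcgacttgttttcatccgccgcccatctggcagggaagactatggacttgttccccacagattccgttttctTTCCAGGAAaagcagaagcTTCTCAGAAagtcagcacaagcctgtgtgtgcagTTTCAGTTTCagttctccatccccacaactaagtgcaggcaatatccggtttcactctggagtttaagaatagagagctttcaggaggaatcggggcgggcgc
Irgm1, chr11:48871371-48871670, minus strand: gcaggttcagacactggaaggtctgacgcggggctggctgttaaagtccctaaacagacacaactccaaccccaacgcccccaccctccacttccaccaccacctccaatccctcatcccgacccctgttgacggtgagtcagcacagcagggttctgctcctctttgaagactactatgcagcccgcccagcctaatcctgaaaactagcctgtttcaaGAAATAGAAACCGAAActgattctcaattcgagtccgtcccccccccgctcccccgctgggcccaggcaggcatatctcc
Irgm2, chr11:58214727-58215026, plus strand: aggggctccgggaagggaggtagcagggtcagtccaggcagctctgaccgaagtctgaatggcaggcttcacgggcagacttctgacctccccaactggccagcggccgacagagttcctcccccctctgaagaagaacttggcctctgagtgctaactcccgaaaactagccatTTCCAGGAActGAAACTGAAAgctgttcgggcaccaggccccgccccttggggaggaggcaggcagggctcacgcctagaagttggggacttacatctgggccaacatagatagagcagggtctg
Igtp, chr11:58199306-58199605, plus strand: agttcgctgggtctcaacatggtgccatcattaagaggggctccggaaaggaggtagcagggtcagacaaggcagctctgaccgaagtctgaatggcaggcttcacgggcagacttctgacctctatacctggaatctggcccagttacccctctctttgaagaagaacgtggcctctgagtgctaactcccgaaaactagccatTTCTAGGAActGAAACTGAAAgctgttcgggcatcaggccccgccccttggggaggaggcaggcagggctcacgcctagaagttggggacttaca
Tgtp1, chr11:48992197-48992496, minus strand: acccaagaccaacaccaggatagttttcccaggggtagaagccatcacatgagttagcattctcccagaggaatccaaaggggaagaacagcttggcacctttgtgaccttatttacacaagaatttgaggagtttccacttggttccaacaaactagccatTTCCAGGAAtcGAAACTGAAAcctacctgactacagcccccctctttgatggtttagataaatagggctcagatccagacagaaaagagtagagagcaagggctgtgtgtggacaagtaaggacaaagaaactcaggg

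An ISRE core was present in 7 of the 9 windows (77.8%), against 3.44% of 32851 windows of all genes. A GAS was present in 4 of the 9 (44.4%), against 8.3% of all windows, and both were present in 4 of the 9 (44.4%), against 0.454%. The Irgm2, Igtp and Tgtp1 windows share 1 layout, a GAS followed after 2 bases by an ISRE core that reads GAAACTGAAA in all 3. The Irgm2 and Igtp windows are related sequences of neighbouring genes, with a longest identical run of 61 bases, so they are not separate examples. In the Gbp7 window, a pair of GAS matches ends 44 and 25 bases before the ISRE core, which lies on the strand opposite to the gene's. The GAS pattern reads the same on both strands, so its matches have no strand. The Gbp3 and Irgm1 windows each hold 2 ISRE cores that overlap, and no GAS. Gbp2 has 1 ISRE core and no GAS, while the Ifi47 window and the second Gbp3 window have neither. These are matches of letters in 1 fixed window. Binding was not measured, and an element outside the window would not be seen.

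**Figure D1:**
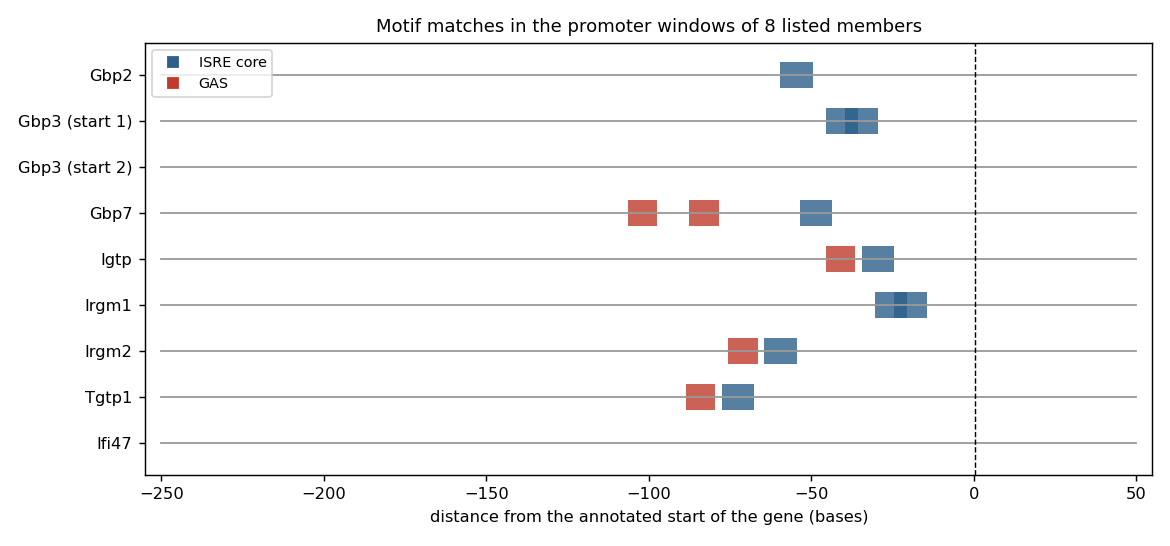
Positions of ISRE core and GAS matches in the 9 RefSeq promoter windows of 8 listed genes, with distance from the annotated start in bases on the x axis and 1 row per window. Matches lie between positions -106 and -15, 7 windows hold an ISRE core, 4 hold a GAS and the 3 windows of Igtp, Irgm2 and Tgtp1 have them 2 bases apart.

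Values below are the authors' deposited linear intensities, in arbitrary units. Changes are knock-in minus wild-type on the log2(intensity + 16) scale, with standard errors from limma, and a gene is called where its adjusted p was below 0.05. Every fold given is that log2 change turned back to a linear scale, so it is not the ratio of the printed intensities or of their means. Array medians lay between 97.0 and 104. Knock-in replicate 3 correlated with the wild-type arrays at 0.9763 to 0.9796 across probe sets, while knock-in replicates 1 and 5 did so at 0.9598 to 0.9688, so it stood nearest to wild-type. The probe set of Lmna read 290, 249 and 258 in knock-in and 282, 267 and 362 in wild-type liver (log2 change -0.17 ± 0.13, limma adjusted p = 0.40), and a total signal does not check a splicing allele. The genotypes differed widely. Of 26634 probe sets tested, 25.9% were called, 2914 lower and 3974 higher, and the split was 3424 lower and 3119 higher with each array centred on its median. The samples are whole liver, in which fewer cells of a type and less RNA per cell cannot be told apart. With 3 mice per genotype, each p-value sets the genotype difference against the spread between mice. Limma moderates that spread toward a trend over all tested probe sets.

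All 4 members were lower in knock-in liver, by fitted folds of 2.19 to 6.05, with a median log2 change of -1.32 beside 0.00 over the 16157 tested genes. In limma all 4 were called lower, where 10.9% of all tested probe sets were (14.9% were called higher), or 13.7% of tested genes with 1 probe set each. A call of lower with a log2 change of at least 1 in size, as all 4 had, held for 2.72% of tested probe sets. The genotypes overlapped at none of the 4 members, and 17.2% of all tested probe sets had all knock-in arrays below all wild-type arrays.

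Gbp3 and Gbp7 are neighbours in the GBP cluster of chromosome 3, in the order Gbp5, Gbp7, Gbp3, Gbp2b and Gbp2. Gbp3 read 79, 109 and 81 in knock-in replicates 1, 3 and 5 and 325, 232 and 234 in wild-type replicates 2, 4 and 6. The lowest wild-type array was thus above the highest knock-in array, which was replicate 3, and wild-type replicate 2 stood above the other 2. The means were 89.7 ± 16.8 and 264 ± 53.1 (SD, n = 3 each). The log2 change from the fit was -1.40 ± 0.16, a fitted fold of 2.64 (limma adjusted p = 0.00148). Gbp7 encodes a GBP known from work on host defence and on assembly of the phagocyte oxidase. Its intensities were 203, 264 and 193 in knock-in and 545, 515 and 437 in wild-type liver. Knock-in replicate 3 was again the highest of its group without reaching the wild-type range. The means were 220 ± 38.4 and 499 ± 55.7 (SD, n = 3 each). Gbp7 changed by -1.13 ± 0.14 on the log2 scale, a fitted fold of 2.19 (limma adjusted p = 0.00195).

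Irgm1, whose product regulates the other IRGs and autophagy, read 190, 278 and 166 in knock-in and 546, 461 and 516 in wild-type liver. The genotypes were well apart, with knock-in replicate 3 the highest of the knock-in arrays. The means were 211 ± 59.0 and 508 ± 43.1 (SD, n = 3 each). The fit gave a log2 change of -1.23 ± 0.18, a fitted fold of 2.35 (limma adjusted p = 0.0032). The 95% intervals of the log2 change were -1.65 to -0.81 for Irgm1 and -1.78 to -1.02 for Gbp3, the members whose windows hold overlapping ISRE cores, and -1.47 to -0.80 for Gbp7, whose window holds a GAS as well. Iigp1 had no window. A link between the motifs of the listed genes and their changes was not tested.

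Iigp1, an effector IRG that loads onto the vacuole of Toxoplasma, had the largest change of the 4. It read 246, 486 and 167 in knock-in and 1954, 1458 and 1823 in wild-type liver. The knock-in arrays spread widely, with replicate 3 the highest, yet the lowest wild-type array was far above it. The means were 300 ± 166 and 1745 ± 257 (SD, n = 3 each). On the log2 scale the change was -2.60 ± 0.34, a fitted fold of 6.05 (95% interval -3.38 to -1.82, limma adjusted p = 0.00208). Ordered from the most lowered of 16157 tested genes, Iigp1 was 45th, Gbp3 was 275th, Irgm1 was 366th and Gbp7 was 435th. The 95% interval of Iigp1 did not reach those of the other 3 members, whose intervals overlapped each other, and the differences between members were not tested.

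**Figure D2:**
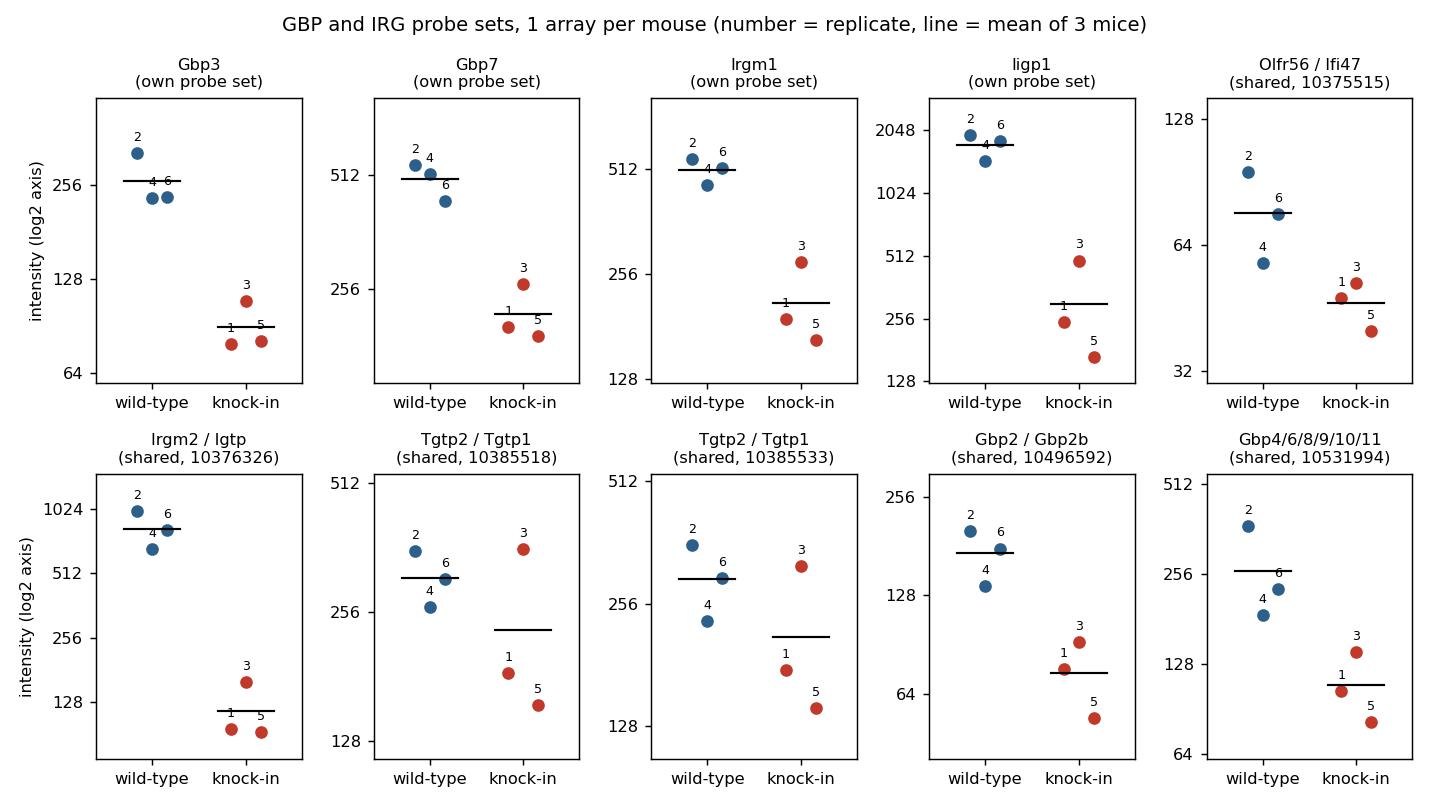
Intensity (log axis) of the 4 members and the 6 shared probe sets on each of the 6 arrays, with 1 point per mouse. All knock-in points lie below all wild-type points for the 4 members and 4 of the shared probe sets, and overlap them for both probe sets of Tgtp1 and Tgtp2. Over all tested probe sets, 17.2% had all knock-in arrays below all wild-type arrays.

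Knock-in replicate 3 was the highest knock-in array for 4 of 4 members. On the log2 scale it lay between 25% (Gbp3) and 42.1% (Irgm1) of the way from the mean of the other knock-in arrays to the wild-type mean. This was common in the data as a whole, since the same array was the highest knock-in array at 72.5% of all probe sets called lower.

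Of the 6 shared probe sets, 4 were called lower by limma and 0 higher, where 10.9% of all tested probe sets were called lower. The median log2 change of the 6 was -0.81. The probe set carrying both Irgm2 and Igtp, a pair of regulatory IRGs, read 95, 159 and 92 in knock-in and 1002, 669 and 814 in wild-type liver. No knock-in array came near the wild-type range. The signal was lower by a fitted fold of 6.51 (log2 change -2.70 ± 0.22, limma adjusted p = 0.000482), and this cannot be divided between these 2 genes, whose promoter windows above share the GAS and ISRE core layout.

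The probe set of Gbp2 and Gbp2b, which encode a pair of closely related GBPs, read 76, 92 and 54 against 201, 137 and 178, a log2 change of -1.07 ± 0.19 (limma adjusted p = 0.00594). The groups did not overlap. A probe set that carries Gbp6 also carries Gbp4, Gbp8, Gbp9, Gbp10 and Gbp11, the chromosome 5 cluster. It read 104, 140 and 82 against 370, 186 and 228, and its log2 change was -1.12 ± 0.26 (limma adjusted p = 0.0175). Wild-type replicate 2 was much the highest, the groups did not overlap, and the adjusted p rose to 0.0616 with knock-in replicate 1 left out and to 0.0542 with replicate 5 left out.

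Ifi47, an effector IRG also known as Irg47, shares a probe set with the olfactory receptor gene Olfr56. It read 48, 52 and 40 in knock-in and 96, 58 and 76 in wild-type liver. The groups were separate by a narrow margin between knock-in replicate 3 and wild-type replicate 4. The log2 change of -0.55 ± 0.15 passed the test (limma adjusted p = 0.034). It missed the threshold when knock-in replicate 1 (adjusted p = 0.0874) or 5 (0.102) was left out, when wild-type replicate 2 (0.0786) or 6 (0.0854) was, and with no filter on dim probe sets (0.0561).

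Tgtp1 and its near-identical copy Tgtp2, effector IRGs first described in T cells, share 2 probe sets. The first read 184, 358 and 155 in knock-in and 355, 262 and 305 in wild-type liver, and the second read 176, 317 and 142 against 356, 232 and 296. In both, knock-in replicates 1 and 5 lay below every wild-type array and replicate 3 lay above the wild-type mean. Neither passed the limma test, with log2 changes of -0.46 ± 0.28 (adjusted p = 0.284; 95% interval -1.11 to 0.19) and -0.50 ± 0.28 (adjusted p = 0.237; -1.15 to 0.14). Without knock-in replicate 3 the changes were -0.80 (adjusted p = 0.00823) and -0.82 (adjusted p = 0.0171), both called lower. The Tgtp1 window printed above has the same GAS and ISRE core layout as those of Irgm2 and Igtp.

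**Figure D3:**
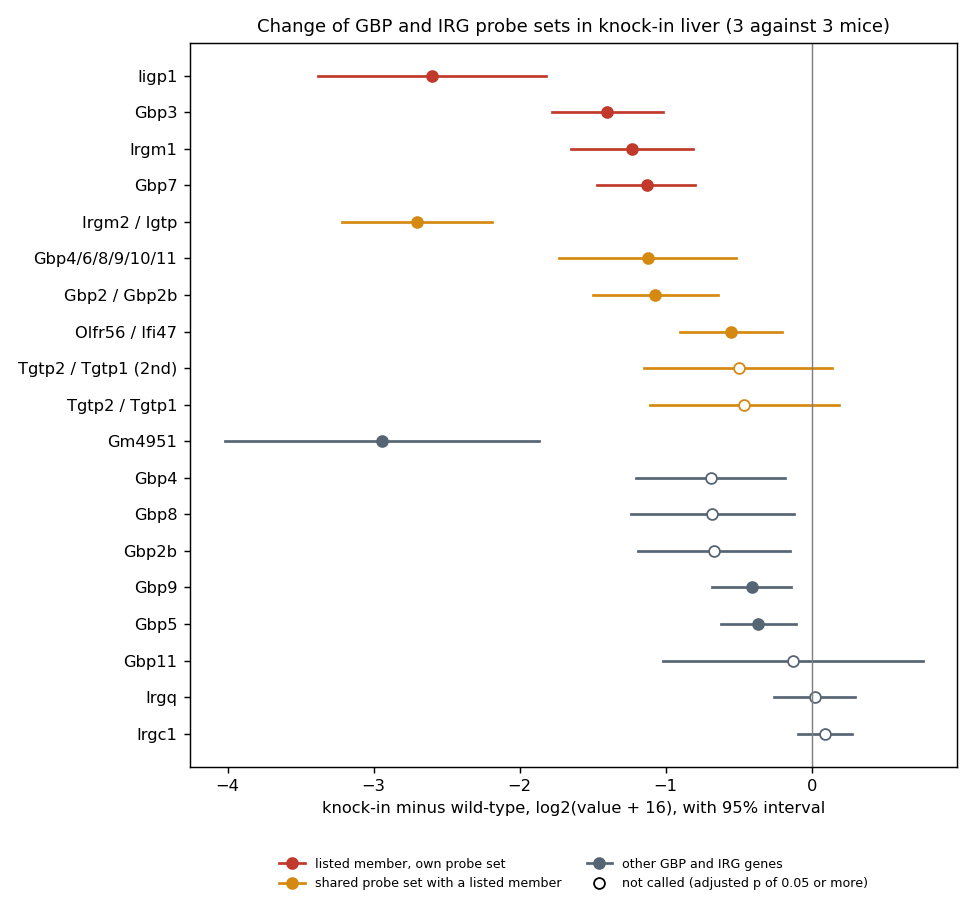
Knock-in minus wild-type change on the log2(intensity + 16) scale, with 95% intervals from limma, for the 4 members, the 6 shared probe sets and 9 other tested GBP and IRG genes. The intervals of the 4 members lie below 0, between -3.38 and -0.80, and those of both Tgtp1 and Tgtp2 probe sets span 0.

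Of 24 other GBP and IRG names listed, only 10 had a probe set of their own, and 9 of these were tested. Limma called 3 of the 9 lower and 0 higher, where 13.7% of all tested genes were called lower. The median log2 change of the 9 was -0.41. Gm4951, an IRG gene next to Iigp1, read 255, 629 and 140 in knock-in and 2799, 1880 and 2311 in wild-type liver. All knock-in arrays were below all wild-type arrays, with replicate 3 the highest. It was lower by a fitted fold of 7.69 (log2 change -2.94 ± 0.46, limma adjusted p = 0.00406). Whether the probes keep related copies such as Gm4951 and Iigp1 apart was not tested. Gbp9 changed by -0.41 ± 0.12 (limma adjusted p = 0.0375). Gbp5, the neighbour of Gbp7 and a GBP tied to inflammasome activation, read 32, 36 and 31 against 59, 43 and 41, a change of -0.37 ± 0.11 (limma adjusted p = 0.0439). Gbp4 and Gbp2b had changes of -0.69 ± 0.22 and -0.67 ± 0.22 that missed the threshold (limma adjusted p = 0.0532 and 0.0649), although their groups did not overlap. The count of 3 dropped to 1 when knock-in replicate 1 or 5 was left out, when wild-type replicate 2 or 4 was, and with no filter. Of 13 dynamin superfamily GTPases outside these families, 0 were called lower and 2 higher, with a median log2 change of 0.06. Those 2 were Atl1, a shaper of the endoplasmic reticulum (0.74 ± 0.11), and Dnm1l, the mitochondrial fission GTPase (0.34 ± 0.09). The higher count was 1 when any mouse but knock-in replicate 3 was left out, with centred arrays and with a filter at the 50th percentile. The lower count was 2 when knock-in replicate 3 was left out or with array weights, and 1 with quantile normalization or centred arrays.

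Upstream of the GTPases, of 19 genes for the ligand, the receptor, signalling and its regulators, limma called 3 lower and 2 higher, with a median log2 change of 0.00. These counts are near the shares over all 16157 tested genes, of which 2219 (13.7%) were called lower and 2093 higher. The same shares stand beside the list counts below. Ifng, the ligand, read 54, 51 and 52 in knock-in and 56, 55 and 46 in wild-type liver. The groups overlapped, and the log2 change was 0.00 ± 0.08 (95% interval -0.17 to 0.18, limma adjusted p = 0.985). Ifng was dim, at a mean of 52.3 in each genotype, where the array medians were 97.0 to 104. Some probe sets with means up to 59.0 were left out of the test as dim. The 16 added before the log understates the change of dim genes, so a change in Ifng could be missed. Ifngr1, the ligand-binding receptor chain, had a log2 change of 0.19 ± 0.12 (limma adjusted p = 0.282; 95% interval -0.08 to 0.46). Ifngr2, the chain that brings JAK2 to the receptor, read 733, 1006 and 744 in knock-in and 1933, 1563 and 1814 in wild-type liver. The groups were apart and knock-in replicate 3 was again the highest of its group. Ifngr2 was lower by a fitted fold of 2.13 (log2 change -1.09 ± 0.15, limma adjusted p = 0.00254).

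The kinase genes Jak1 and Jak2 had log2 changes of 0.02 ± 0.10 and 0.13 ± 0.12 (limma adjusted p = 0.893 and 0.487), with overlapping groups. Irf1, the induced transcription factor that binds ISREs, read 144, 211 and 118 against 546, 308 and 294 (fitted fold 2.26, log2 change -1.18 ± 0.27, limma adjusted p = 0.0176). The groups were apart, with wild-type replicate 2 the highest array. The adjusted p was 0.0654 with knock-in replicate 1 left out and 0.0542 with replicate 5 left out. A second, dimmer probe set of Irf1 had a log2 change of -0.08 ± 0.08 (limma adjusted p = 0.494), and the mean of both fell by 0.63 ± 0.16 (limma adjusted p = 0.0244). Irf8, a related factor of myeloid cells, had a log2 change of -0.07 ± 0.16 (limma adjusted p = 0.813).

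Among negative regulators, Ptpn2, a phosphatase that acts on JAK1, was higher by 1.08 ± 0.16 (fitted fold 2.11, limma adjusted p = 0.00338), although its other probe set stood at -0.09 ± 0.10 (limma adjusted p = 0.571). Irf2bp2, a corepressor that binds the ISRE-binding repressor IRF2, read 2091, 1669 and 2506 in knock-in and 478, 754 and 691 in wild-type liver. It was higher by a log2 change of 1.69 ± 0.21, a fitted fold of 3.22 (limma adjusted p = 0.00172), with no overlap. Ptpn6, the phosphatase SHP-1 of blood cells, was lower by a log2 change of -0.56 ± 0.11 (limma adjusted p = 0.0102). The other listed negative regulators, Socs1, Pias1 and Ptpn11, were not called. Their log2 changes were -0.14 ± 0.11, 0.33 ± 0.16 and 0.23 ± 0.11 (limma adjusted p = 0.433, 0.177 and 0.164). Without knock-in replicate 3, the genes of this list called higher were 4 rather than 2.

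**Figure D4:**
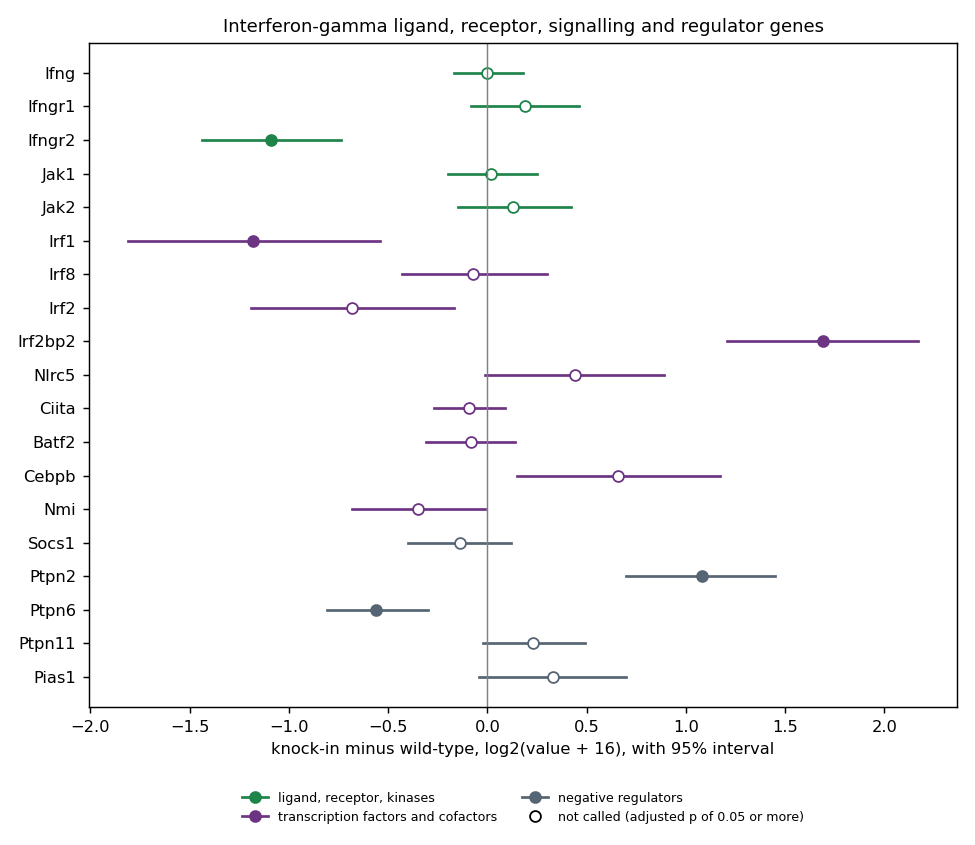
Knock-in minus wild-type change on the log2(intensity + 16) scale, with 95% intervals from limma, for 19 genes of the interferon-gamma ligand, receptor, signalling chain and regulators. Ifngr2, Irf1 and Ptpn6 lie below 0, Irf2bp2 and Ptpn2 lie above 0, and the interval of Ifng runs from -0.17 to 0.18.

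Other genes that interferon-gamma induces were lower in part. Of 31 tested, limma called 16 lower and 1 higher (Icam1), with a median log2 change of -0.42. Cxcl9, a chemokine that draws T cells, read 96, 215 and 89 in knock-in and 873, 819 and 880 in wild-type liver (fitted fold 6.26, log2 change -2.65 ± 0.28, limma adjusted p = 0.00111). The groups were far apart, with knock-in replicate 3 the highest of the knock-in arrays. The chemokine gene Cxcl11 changed by -0.92 ± 0.10, Parp14, which encodes an ADP-ribosyltransferase, by -1.06 ± 0.12, the immunoproteasome gene Psmb9 by -0.98 ± 0.12 and the complement inhibitor gene Serping1 by -0.60 ± 0.09 (limma adjusted p = 0.0011 to 0.00327). The count of 16 was 9 when knock-in replicate 1 or wild-type replicate 2 was left out and 10 when knock-in replicate 5 was. Icam1 was not called when wild-type replicate 4 or 6 was left out, nor without knock-in replicate 1.

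Genes of the type I interferon response, which share ISREs with the GTPases, included 24 of 32 called lower and 0 higher by limma, with a median log2 change of -0.92. Ifit1, which binds foreign RNA, read 64, 72 and 69 in knock-in and 261, 254 and 289 in wild-type liver (fitted fold 3.37, log2 change -1.75 ± 0.09, limma adjusted p = 0.000102). The arrays of each genotype lay close together. Stat2 and Irf9, which encode subunits of the ISRE-binding complex, changed by -1.59 ± 0.15 and -1.30 ± 0.13 (limma adjusted p = 0.000678 and 0.000848). Samd9l and Oas2, a restriction factor gene and an RNA sensor gene, changed by -1.44 ± 0.13 and -1.03 ± 0.09. The count of 24 ranged from 22 to 25 over the alternatives. The difference between the lists was not tested.

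GBPs and IRGs are placed on vacuoles with help of the ATG8 conjugation machinery, and GBPs act with inflammasomes. Of 18 ATG8 conjugation and vacuole recognition genes, 3 were called lower and 7 higher by limma, with a median log2 change of 0.14. The galectin gene Lgals8 (-0.73 ± 0.09) and the conjugation gene Atg10 (-0.50 ± 0.09) were lower, while the ATG8 gene Map1lc3b (0.86 ± 0.11), the ubiquitin ligase gene Traf6 (0.64 ± 0.13) and the conjugation gene Atg16l1 (0.48 ± 0.10) were higher. The count of 7 was 3 when knock-in replicate 1 was left out, and 4 when knock-in replicate 5 or wild-type replicate 6 was left out or the arrays were centred. Of 9 inflammasome genes tested (median log2 change 0.04), 1 was called lower, Gsdmd, the pore-forming gasdermin (-0.67 ± 0.09; limma adjusted p = 0.00257).

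**Figure D5:**
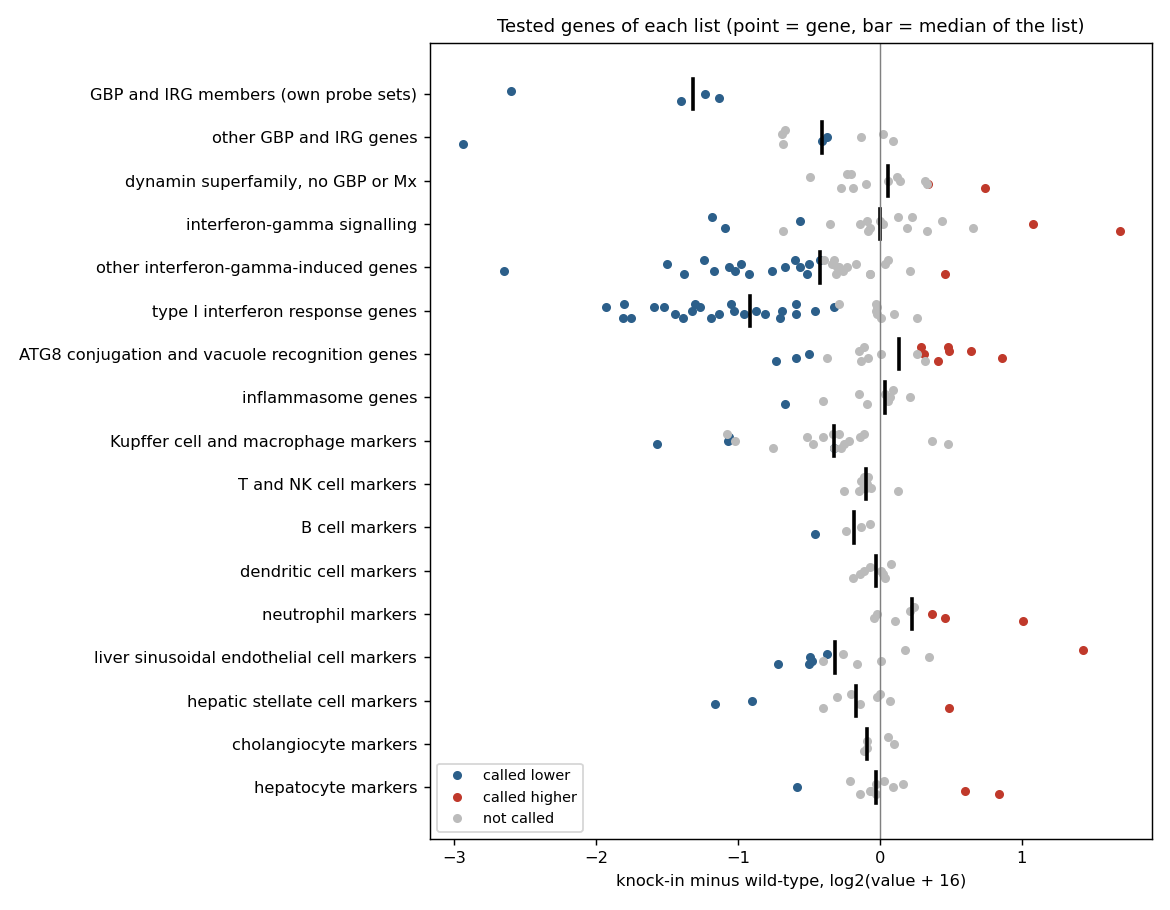
Knock-in minus wild-type change on the log2(intensity + 16) scale for each tested gene of the members, the 7 pathway lists and the 9 cell marker lists, with 1 point per gene and a bar at each median. The median is -1.32 for the 4 members, -0.92 for type I interferon response genes, -0.42 for other interferon-gamma-induced genes and 0.00 for receptor, signalling and regulator genes.

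Kupffer cells, the macrophages of the liver, also express these GTPases, as do endothelial cells and hepatocytes. Of 20 Kupffer cell and macrophage markers, 4 were called lower by limma (Aif1, Slc40a1, Folr2 and Adgre1) and 0 higher. Over all tested genes 13.7% were called lower. The median log2 change of the 20 markers was -0.32, and 18 of the 20 changes were below 0. Aif1 was dim, at 32 to 49. The summed intensity of these 20 markers was 9881, 10854 and 5988 in knock-in and 16506, 12243 and 10843 in wild-type liver. The count of 4 was 0 when knock-in replicate 1 or wild-type replicate 2 was left out, 2 when knock-in replicate 5 or wild-type replicate 4 was, and 7 when knock-in replicate 3 was. With knock-in replicate 5 left out, 2 of these markers were called higher. Of 12 sinusoidal endothelial cell markers, 5 were called lower (among them Fcgr2b, Oit3 and Kdr) and 1 higher (Lyve1), with sums of 7266 to 9442 in knock-in and 8833 to 9486 in wild-type liver. The 5 became 1 when knock-in replicate 1 or wild-type replicate 2 was left out and 0 when wild-type replicate 6 was, and Lyve1 was not called when knock-in replicate 5 was. Of 10 stellate cell markers, 2 were lower (Lrat and Colec11) and 1 higher (Dcn), with sums of 10663 to 12472 and 10456 to 11319. Colec11 was not called when knock-in replicate 1 or 5 was left out, nor when wild-type replicate 2 or 6 was (adjusted p = 0.0692 to 0.0804), and 4 stellate markers were called lower when knock-in replicate 3 was left out or with array weights.

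T and natural killer cells are the main sources of interferon-gamma. Of 12 of their markers tested, 0 were called (1 lower when knock-in replicate 3 was left out or with array weights), and the summed intensity of the 18 measured was 1097 to 1141 in knock-in and 1137 to 1244 in wild-type liver. The other 6 were left out of the test as dim, so a change in these cells could be missed. Among B cell markers 1 of 4 was lower (Cd79b), with sums of 316 to 360 and 383 to 432 (2 lower with no filter, quantile normalization or centred arrays, 0 with the stricter filter), and among dendritic cell markers 0 of 8 were called, with sums of 707 to 767 and 750 to 755. Of 8 neutrophil markers tested, 3 were called higher (Retnlg, S100a8 and Mmp9) and 0 lower, where 14.9% of all tested probe sets were called higher. Log2 changes below 0 were seen for 2 of the 8, and the sums were 744 to 752 against 556 to 630. The called markers were dim, with Retnlg at 34 to 96, S100a8 at 45 to 73 and Mmp9 at 66 to 102. The 3 became 2 when knock-in replicate 1 or 5 was left out, likewise when wild-type replicate 4 was, and 0 with a filter at the 50th percentile. Cholangiocyte markers had 0 of 5 called, with sums of 440 to 462 and 436 to 469. Of 12 hepatocyte markers, 1 was lower (Asgr1) and 2 were higher (Hnf4a and Tat), and the sums were 142360 to 154979 and 139850 to 144547, so every array carried the signal of the labelled tissue. With 1 mouse left out at a time, Asgr1 stayed called only when that was knock-in replicate 3, and Tat was not called when knock-in replicate 1 was. No probe set on any array read below 7, so a reading above 0 does not show that a marker was detected. The part of cell composition in the lower GBP and IRG signal was not tested.

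The 4 members' median profile over the 6 arrays, each gene centred on its own mean, was compared with the profiles of 16153 other genes by root mean square difference. The nearest were Rab29, a small GTPase of the endolysosomal system (0.0641), Tmtc4, an enzyme of the endoplasmic reticulum (0.0674), the serine racemase gene Srr (0.0699), the dehydrogenase gene Dhdh (0.0738) and Samd9l (0.0758), all on the log2 scale. Their log2 changes were between -1.30 and -1.44. Among the members, Gbp3 lay 0.0745 from this profile, Irgm1 0.102, Gbp7 0.135 and Iigp1 0.689. Nearness to the profile chose the 5 genes, so their change is no further finding.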

How the data were processed

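The authors deposited 1 linear intensity per probe set and array, in whole numbers, for 35512 probe sets on 6 arrays. Probe summary, background correction and normalization are not given in the sources used here. Per the labels' protocols, liver RNA was copied into cDNA, and in vitro transcription added the biotin label. Arrays carry no read depth, and 3 mice per genotype limit the precision. Platform annotation gave 1 symbol to 21789 probe sets, several to 1621 and none to 12102.

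Intensities were taken as log2(value + 16), which understates the change of dim genes. Probe sets under the 25th percentile of their mean over the arrays were left out. That mean was first taken on the intensities (26664 tested) and then, with a count from earlier work on these data known, on the log2 scale (26634 tested, used throughout). The 4 members kept their calls either way. Tests used limma 3.58.1 in R 4.3.3 (lmFit, eBayes with trend), knock-in minus wild-type, adjusted by Benjamini-Hochberg over all tested probe sets at 0.05, and were checked on simulated data. A gene was represented by its probe set with 1 symbol and the highest mean. Of 264 list names, 239 were matched. Probe sets not above background could not be identified, as no detection calls were used.

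The members, lists and rules were chosen with earlier results of these data known. Named genes are the 10 listed genes, up to 5 per pathway list and 3 per marker list by smallest p, the receptor and signalling genes Ifng, Ifngr1, Ifngr2, Jak1, Jak2, Irf1 and Irf8, and the 5 genes with profiles nearest the members' median. Icam1, Adgre1, Lyve1, Socs1, Pias1 and Ptpn11 were named after their values were seen. Alternatives were pseudocounts of 1 and 64, quantile normalization, centred arrays, no filter or one at the 50th percentile, eBayes without trend or with a robust prior, array weights, the mean of a gene's probe sets, each mouse left out, and, added after the data were seen, the filter on intensities and shared probe sets counted with the members. Figures used matplotlib 3.10.9.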

Additional observations from a re-analysis of the deposited data

How the results depend on the processing

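All 4 members stayed called lower under each of 17 alternatives in limma, with log2 changes of -1.54 to -1.09 for Gbp3 (adjusted p = 0.000728 to 0.0098), -1.26 to -0.99 for Gbp7 (0.000754 to 0.0128), -1.43 to -1.07 for Irgm1 (0.000422 to 0.0187) and -3.0 to -2.27 for Iigp1 (0.000167 to 0.0134). Counting the shared probe sets as well, an alternative chosen after seeing the data, gave 8 called lower. With the filter on the mean intensity, also added later, 6904 probe sets were called rather than 6888. Leaving out 1 mouse at a time gave 4236 to 7725 called probe sets, the fewest without knock-in replicate 1 and the most without knock-in replicate 3. Leaving out wild-type replicate 2 gave 4478, and wild-type replicate 6 gave 4564. The other genes of the pathway lists called lower were 50, and 38 to 57 with 1 mouse left out. Those called higher were 12, and 6 to 15 with 1 mouse left out. Cell type markers called lower were 13, and 3 to 22 with 1 mouse left out (3 without knock-in replicate 1 and again 3 without wild-type replicate 2, 22 without knock-in replicate 3). Signs turned for 3 genes with changes near 0 that were never called. The log2 change of Ifng was -0.05 with quantile normalization, -0.05 with centred arrays, and -0.07 to 0.04 with 1 mouse left out (-0.01 for knock-in replicate 1, -0.07 for wild-type replicate 6). That of Jak1 was -0.03 with centred arrays, 0.00 with array weights, and -0.05 (knock-in replicate 3) to 0.08 with 1 mouse left out. That of Irf8 was -0.20 to 0.05 with 1 mouse left out (0.05 for knock-in replicate 5, 0.03 for wild-type replicate 2). The cause was not tested. No paired analysis was possible because the genotypes share no replicate number. Signal over background could not be assessed without detection calls, and 3 mice per genotype limit the precision.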
